A study of Mus musculus with 50 samples.

Results

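The genes under study mark macrophages in tumors. These 10 of the 37469 gene rows of a bulk RNA sequencing count table were followed across 48 mouse sarcomas and a pair of libraries of a line called 402230. They were chosen by symbol: the complement genes C1qa, C1qb and C1qc, the growth factor receptor gene Csf1r, the surface and lysosomal marker genes Adgre1 and Cd68, the Fc receptor genes Fcgr1 and Fcgr4, and the lipid-sensing and lipid-transport genes Trem2 and Apoe. All 10 passed the filter on low counts, as did 19327 genes in all. The sarcomas, called p53/MCA tumors, grew in the gastrocnemius, a calf muscle, of 129/SvJae mice. Primary tumors arose in the mouse in which they were sampled, 6 to 10 weeks old at induction, after an adenovirus carrying Cre recombinase (Adeno-Cre) had deleted floxed Trp53 and 300 µg of the carcinogen 3-methylcholanthrene (MCA) had been injected. Transplant tumors grew from 50000 cells of a cultured p53/MCA line placed in the same muscle, so that they share the ancestry of a cultured line while each primary tumor arose on its own. All tumors, controls included, therefore lacked Trp53 in the tumor cells and carried MCA-induced mutations. Mice received 0 or 20 Gy of focal radiation together with 200 µg a dose of anti-PD-1, which blocks an inhibitory receptor of T cells, or of an isotype control, and tumors were harvested 3 days later. There were 8 primary and 4 transplant tumors for every treatment, and total counts per tumor ran from 31810461 to 54008259.

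Macrophages enter tumors as blood monocytes or derive from cells already in the tissue, and they depend on signals through the receptor encoded by Csf1r. They make most of the C1q of a tissue, which starts the classical complement cascade on antibody-coated or dying cells, and they take up antibody-coated targets through Fcγ receptors. Trem2 and Apoe belong to a lipid-handling program that is prominent in many tumor macrophages. In bulk RNA, a lower level may come from fewer macrophages or from less of the RNA in each of them, and these cannot be told apart.

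On GRCm38, the assembly also called mm10, GENCODE release M21 places the genes of the C1q chains side by side on the minus strand of chromosome 4, with C1qb at 136880129 to 136886187, C1qc at 136889804 to 136893065 and C1qa at 136895917 to 136898803. Fcgr1 lies on chromosome 3 at 96282909 to 96293969 and Fcgr4 on chromosome 1 at 171018920 to 171029761. Adgre1, at 57358691 to 57483527, and Trem2, at 48346401 to 48354147, are both on chromosome 17. Cd68 is on chromosome 11 at 69664213 to 69666153, and Apoe on chromosome 7 at 19696109 to 19699188. All of these are protein-coding genes.

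Csf1r, on chromosome 18 at 61100598 to 61132149, overlaps Hmgxb3 on the opposite strand. Over the 48 tumors Hmgxb3 had 79032 counts and Csf1r 822204. The setting of the counting for strand was not stated, so that a share of reads in the overlap cannot be assigned to one gene.

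Per kilobase of exon, the most abundant of the 10 genes were C1qa, C1qb and Apoe. The median over the 48 tumors was 608 CPM (read counts scaled to library size) per kilobase for C1qa, 479 for C1qb, 390 for Apoe and 239 for C1qc. The middle of the order held Cd68 at 103.8, Csf1r at 68.0, Adgre1 at 56.7, Fcgr1 at 53.6 and Fcgr4 at 50.9. Trem2 was lowest, at 5.16. The neighbours Csf1r, Adgre1, Fcgr1 and Fcgr4 had overlapping ranges over the tumors. Fcgr4 had the widest of these, from 5.44 to 315 CPM per kilobase. Below, levels of single genes are on the log2 CPM scale and differences are log2 fold changes.

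Both libraries of line 402230 went against their labels for these genes. The library labelled as the parental primary tumor had 0 counts of Adgre1, 1 of Fcgr1, 1 of Trem2, 2 of C1qb, 2 of C1qc, 3 of C1qa and 3 of Fcgr4 among 48457411 counts. Its 0 counts of Adgre1 allow a level of up to 0.0670 CPM, the value of 3 counts, as a 1-sided 95% Poisson limit. The intervals that follow are 2-sided and would set that limit higher. The tumor with the least Adgre1 had 29.9 CPM, 447-fold more than the value of 3 counts. Csf1r stood at 0.492 CPM in this library (95% exact Poisson interval, 0.308 to 0.744), against 178 CPM in the lowest tumor. Cd68, at 2.26 CPM (1.84 to 2.74), and Apoe, at 6.35 CPM (5.63 to 7.13), were also below all 48 tumors. These intervals cover counting error only. The library labelled as the cell line instead had every one of the 10 genes within the range of the tumors, with 254 CPM of C1qa, 234 of Csf1r, 60.5 of Adgre1, 70.3 of Cd68 and 514 of Apoe.

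Markers of other cells split these libraries in the same way. The library labelled as the parental tumor had 0.626 CPM summed over 5 pan-leukocyte genes, against 372 to 2212 in the tumors, and none of 5 T cell genes had a count. It had 1.32 CPM over 4 endothelial genes and 2947 over 5 cell cycle genes, against 192 to 1160 in the tumors. In the library labelled as the cell line the pan-leukocyte genes summed to 354 CPM, just below the lowest tumor. Its endothelial genes summed to 299 CPM and its cell cycle genes to 581 CPM, within the range of the tumors. The inflammatory monocyte and CSF1 axis genes, listed below, also summed to less in this library than in any tumor. Every other list summed to a value within the range of the tumors. Each library was 1 sample and entered none of the comparisons below, apart from an alternative that added the library labelled as the parental tumor to the untreated primary group. The plot of both against the 48 tumors shows the gap.

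**Figure D1:**
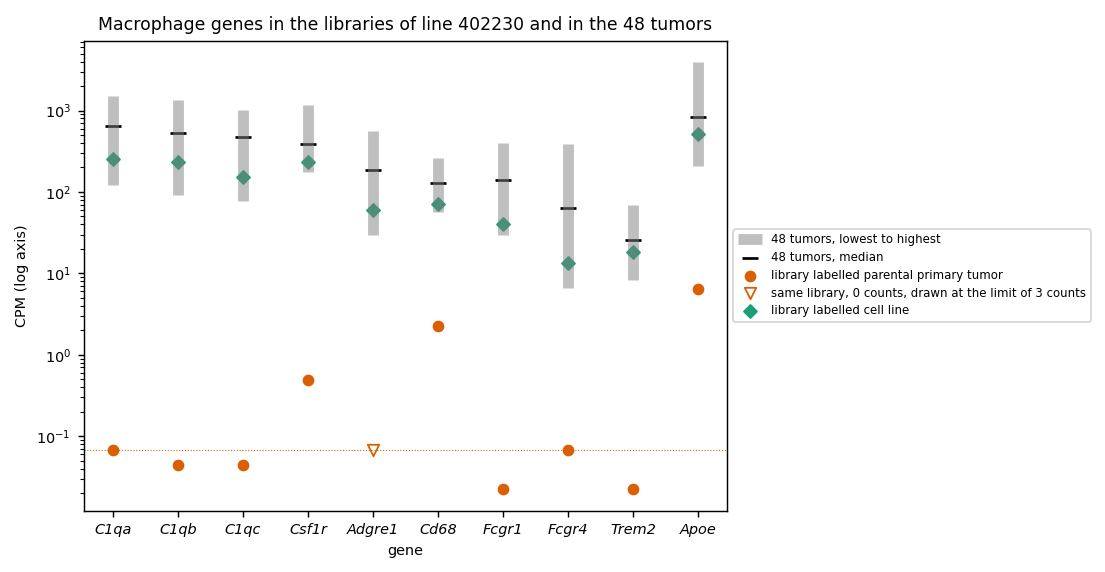
CPM on a log axis of the 10 macrophage genes in the library labelled parental primary tumor (orange), in the library labelled cell line (green diamonds) and over the 48 tumors (grey bar from lowest to highest, black line at the median). The orange points lie below the grey bar for every gene, while the green diamonds lie within it. The dotted line is the level of 3 counts, 0.0670 CPM.

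One tumor library stood apart from its group. Replicate 5 of the primary anti-PD-1 tumors at 20 Gy had the lowest C1qa (6.97), C1qb (6.59), C1qc (6.34), Adgre1 (4.96) and Fcgr1 (4.94) log2 CPM of all 48 tumors. Its Cd68, 7.42, was not low: 35 tumors had less. Replicate numbers follow the order of deposition and pair nothing, and the calls that change without this library are given below.

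**Figure D2:**
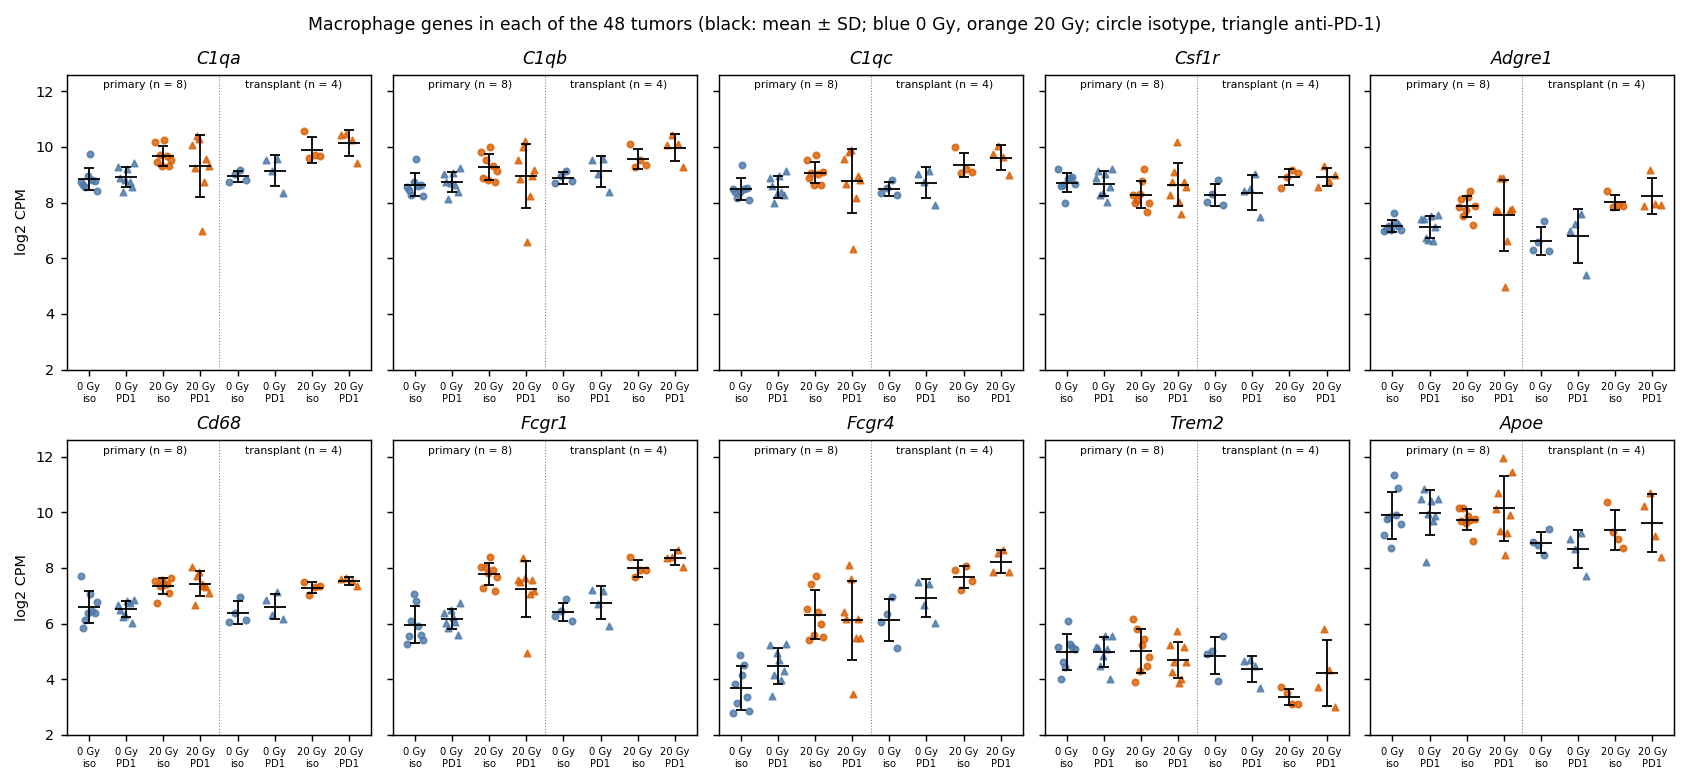
Log2 CPM of each gene in the 8 groups, 1 point per tumor (circle isotype, triangle anti-PD-1, blue 0 Gy, orange 20 Gy), with the mean and SD of each group in black. Fcgr1 and Fcgr4 lie higher at 20 Gy in both models, and Fcgr4 starts higher in transplant tumors. The lowest triangle at 20 Gy in primary tumors is replicate 5 in every panel except those of Csf1r and Cd68.

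To determine how the macrophage genes responded to radiation, tumors given 20 Gy were compared with tumors given 0 Gy in each model, averaging over the antibodies. In primary tumors 7 of the 10 genes rose and none fell: Fcgr4, Fcgr1, Cd68, C1qa, Adgre1, C1qb and C1qc (edgeR quasi-likelihood test, adjusted p under 0.05 over all 19327 genes). For comparison, 16.8% of all genes rose. The median log2 fold change was 0.65 over the 10 genes and 0.00 over all genes. Csf1r, Trem2 and Apoe did not pass, which by itself is not a difference from the other 7. Differences from Csf1r were tested and are given below.

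The Fc receptor genes rose most. Fcgr4 encodes an activating receptor for IgG that is found on mouse monocytes, macrophages and neutrophils, and Fcgr1 encodes the high-affinity IgG receptor CD64. Upstream sequences from RefSeq (GRCm38.p6) were available for 7 of the 10 genes, and the stretches that lie before the start of the Fc receptor genes and of C1qb are printed to show members with a large and a small rise after radiation. Capitals mark matches to TTCNNNGAA (a STAT-type GAS motif), GAAANNGAA (an interferon response type motif) or GAGGAA (a core bound by PU.1), searched on both strands. Bases of annotated exons were removed.
Fcgr1, chr3:96293970-96294219, minus strand: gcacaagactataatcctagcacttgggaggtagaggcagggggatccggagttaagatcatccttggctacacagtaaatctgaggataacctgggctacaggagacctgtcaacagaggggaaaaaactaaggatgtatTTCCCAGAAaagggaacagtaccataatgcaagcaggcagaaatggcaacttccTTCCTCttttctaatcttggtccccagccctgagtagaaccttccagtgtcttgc
Fcgr4, chr1:171018676-171018919, plus strand: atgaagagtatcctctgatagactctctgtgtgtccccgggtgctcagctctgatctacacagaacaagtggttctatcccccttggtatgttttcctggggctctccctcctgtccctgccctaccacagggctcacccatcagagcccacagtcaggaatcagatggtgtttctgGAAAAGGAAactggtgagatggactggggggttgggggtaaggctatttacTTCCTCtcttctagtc
C1qb, chr4:136886201-136886450, minus strand: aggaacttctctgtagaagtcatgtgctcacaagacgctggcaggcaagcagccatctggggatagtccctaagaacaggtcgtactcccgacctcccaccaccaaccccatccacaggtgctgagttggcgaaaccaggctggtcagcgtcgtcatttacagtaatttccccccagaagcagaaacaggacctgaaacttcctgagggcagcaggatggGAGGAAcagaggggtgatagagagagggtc
The Fcgr1 stretch held 1 GAS match, TTCCCAGAA, which reads as a match on both strands, and the Fcgr4 stretch held 1 interferon response type match, GAAAAGGAA. Such matches were not particular to the genes that rose: a window of Apoe, which gave no call after radiation, held the interferon response type match GAAAGGGAA, and all 7 genes with a window, Trem2 and Apoe included, held a match to the PU.1 core. Of 32851 promoter windows of 250 bases, 7.02% held a GAS match, 7.13% an interferon response type match and 23.3% a PU.1 core match. A match is a run of letters and was not tested as a binding site.

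In primary tumors given the isotype antibody, Fcgr4 ran from 2.78 to 4.86 at 0 Gy with a median of 3.59, and from 5.40 to 7.71 at 20 Gy with a median of 6.20. These groups did not overlap. How many of all genes separated by dose within a single antibody was not counted, here or below. With anti-PD-1 it ran from 3.39 to 5.26 (median 4.49) at 0 Gy and from 3.45 to 8.12 (median 6.15) at 20 Gy, where replicate 5 was the lowest and the other 7 lay above all 8 unirradiated tumors. Over both antibodies Fcgr4 was 5.17-fold higher after radiation (log2 fold change 2.37, 95% interval 1.75 to 2.99, adjusted p = 1.35e-07).

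Fcgr1 showed the same order of groups. Its range with isotype was 5.28 to 7.05 at 0 Gy (median 5.74) and 7.17 to 8.38 at 20 Gy (median 7.86), again without overlap. With anti-PD-1 the range was 5.58 to 6.72 (median 6.13) at 0 Gy and 4.94 to 8.36 (median 7.53) at 20 Gy. Fcgr1 was 2.81-fold higher after radiation (log2 fold change 1.49, 1.10 to 1.89, adjusted p = 1.61e-07). In each of these genes 15 of the 16 irradiated tumors lay above all 16 unirradiated tumors. No member separated fully, which 0.0414% of all genes did.

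Cd68, which encodes a lysosomal glycoprotein of phagocytes, rose less. Its median went from 6.41 to 7.41 with isotype and from 6.58 to 7.39 with anti-PD-1. The ranges overlapped with isotype (5.85 to 7.72 at 0 Gy, 6.74 to 7.65 at 20 Gy) and with anti-PD-1 (6.02 to 6.85, 6.65 to 8.05). Of 8 irradiated tumors, 0 with isotype and 7 with anti-PD-1 lay above all unirradiated tumors of the same antibody. The fold over both antibodies was 1.75 (log2 fold change 0.80, 0.52 to 1.09, adjusted p = 2.34e-05).

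Adgre1, which encodes the macrophage surface protein F4/80, had medians of 7.10 and 7.27 at 0 Gy (isotype and anti-PD-1) and of 7.87 and 7.74 at 20 Gy. Of the 16 irradiated tumors, 12 lay above all unirradiated tumors and replicate 5 lay below them. The log2 fold change was 0.73 (0.29 to 1.17, adjusted p = 0.00912).

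The C1q chains moved together, C1qa by as much as Adgre1, and C1qb and C1qc by less. C1qa ran from 8.43 to 9.73 (median 8.77) at 0 Gy with isotype and from 9.30 to 10.25 (median 9.60) at 20 Gy. With anti-PD-1 it ran from 8.38 to 9.42 (median 8.86) and from 6.97 to 10.38 (median 9.43). The groups overlapped, and 5 of 16 irradiated tumors exceeded all unirradiated ones. The log2 fold changes were 0.73 for C1qa (0.35 to 1.12, adjusted p = 0.00295), 0.56 for C1qb (0.16 to 0.96, adjusted p = 0.0286) and 0.53 for C1qc (0.14 to 0.92, adjusted p = 0.0349). The calls of C1qb and C1qc were close to the threshold. C1qb was lost without replicate 5 at 20 Gy with isotype (adjusted p = 0.0561), or without replicate 3 (0.0553) or replicate 4 (0.0610) at 20 Gy with anti-PD-1. C1qc was lost without those same 3 tumors or without replicate 8 at 0 Gy with isotype, replicate 3 at 0 Gy with anti-PD-1 or replicate 1 at 20 Gy with isotype, with adjusted p of 0.0508 to 0.0683.

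Csf1r, Trem2 and Apoe gave no call in irradiated primary tumors. Csf1r, the receptor on which macrophage survival depends, had medians of 8.76 and 8.72 at 0 Gy and of 8.18 and 8.64 at 20 Gy, and a log2 fold change of -0.14 (-0.50 to 0.23, adjusted p = 0.600). For Trem2, which encodes a lipid-sensing receptor, it was -0.07 (-0.54 to 0.40, adjusted p = 0.851). Apoe, which encodes the lipid carrier apolipoprotein E, ran in primary tumors from 8.20 to 11.32 at 0 Gy and from 8.45 to 11.94 at 20 Gy, and differed by 0.03 (-0.52 to 0.59, adjusted p = 0.941). The intervals of Csf1r and Trem2 leave out the estimates of Cd68 and of both Fc receptor genes.

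In transplant tumors 6 of the 10 genes rose after 20 Gy and none fell, while 5.85% of all genes rose. The 6 were Fcgr1, Adgre1, Cd68, C1qa, Fcgr4 and C1qc. The median log2 fold change was 0.88 over the 10 genes and -0.02 over all genes. With isotype, Fcgr1 was 6.27, 6.45, 6.87 and 6.10 log2 CPM in the unirradiated tumors and 8.39, 7.69, 7.92 and 7.94 in the irradiated ones. With anti-PD-1 it was 7.22, 6.70, 7.17 and 5.91 at 0 Gy and 8.37, 8.41, 8.66 and 8.01 at 20 Gy. All 8 irradiated tumors lay above all 8 unirradiated ones, and the fold was 2.93 (log2 fold change 1.55, 0.99 to 2.11, adjusted p = 0.000225).

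Adgre1 was the other member whose transplant tumors separated fully by dose, as 2.83% of all genes did. With isotype it was 6.29, 6.57, 7.35 and 6.26 at 0 Gy and 8.42, 7.85, 7.90 and 7.88 at 20 Gy. With anti-PD-1 it was 6.99, 7.22, 7.58 and 5.39 at 0 Gy and 7.89, 9.19, 7.93 and 7.92 at 20 Gy. Its log2 fold change was 1.35 (0.72 to 1.98, adjusted p = 0.00321).

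Fcgr4 was 6.05, 6.34, 6.96 and 5.14 in unirradiated transplant tumors with isotype and 7.92, 7.21, 8.07 and 7.52 after 20 Gy. With anti-PD-1 it was 7.48, 6.68, 7.42 and 6.03 at 0 Gy and 7.86, 8.53, 8.63 and 7.86 at 20 Gy. Its unirradiated median with isotype, 6.20, was that of the irradiated primary tumors with isotype, also 6.20, and its log2 fold change was 1.35 (0.51 to 2.20, adjusted p = 0.0376). Cd68 rose by a log2 fold change of 0.87 (0.47 to 1.27, adjusted p = 0.00268), C1qa by 0.98 (0.44 to 1.53, adjusted p = 0.0156) and C1qc by 0.89 (0.33 to 1.44, adjusted p = 0.0376).

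The calls of Fcgr4, C1qc and C1qa in transplant tumors rested on single libraries. Fcgr4 lost its call in 9 of the 48 removals of 1 library and C1qc in 7, with adjusted p of up to 0.0989 and 0.109, each highest without replicate 4 at 0 Gy with anti-PD-1. The same removals covered both genes for replicates 1, 2 and 4 at 0 Gy with isotype, replicates 2 and 4 at 0 Gy with anti-PD-1, replicate 1 at 20 Gy with isotype and replicate 2 at 20 Gy with anti-PD-1. Fcgr4 alone lost its call without replicate 3 at 20 Gy with isotype or with anti-PD-1. C1qa missed the threshold without replicate 4 at 0 Gy with anti-PD-1 (adjusted p = 0.0531).

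The other 4 members gave no call in transplant tumors. C1qb stood at 0.77 (0.20 to 1.34, adjusted p = 0.0916) and passed without replicate 5 of the primary anti-PD-1 tumors at 20 Gy, which enters the shared estimate of the spread (adjusted p = 0.0295). Apoe stood at 0.81 (0.02 to 1.60, adjusted p = 0.244) and Csf1r at 0.56 (0.04 to 1.08, adjusted p = 0.209).

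Trem2 had a negative estimate, -0.71 (-1.38 to -0.04, adjusted p = 0.222). With isotype it was 4.90, 4.995, 3.95 and 5.56 at 0 Gy and 3.72, 3.49, 3.12 and 3.11 at 20 Gy, without overlap. With anti-PD-1 it was 4.66, 4.70, 4.48 and 3.69 at 0 Gy and 3.71, 5.79, 4.32 and 3.01 at 20 Gy, where replicate 2 was the highest. Without that library the log2 fold change was -1.10 and passed the test (adjusted p = 0.0253).

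**Figure D3:**
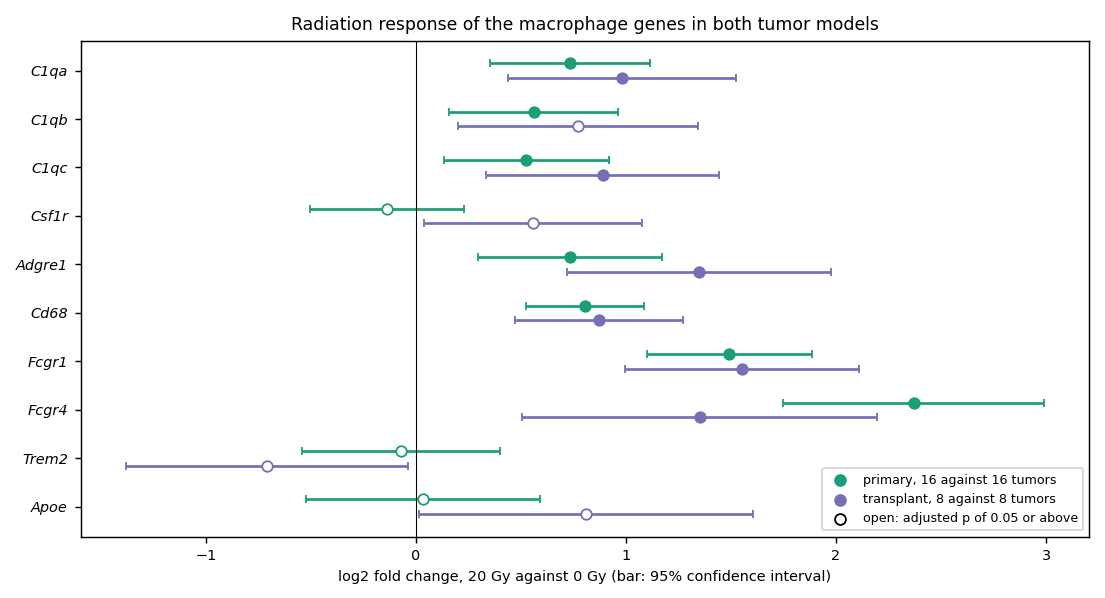
Log2 fold change of each gene at 20 Gy against 0 Gy, averaged over both antibodies, in primary (green) and transplant (purple) tumors, with 95% confidence intervals; filled points had an adjusted p under 0.05. The Fc receptor genes lie furthest to the right, and the intervals of the models overlap for every gene.

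The test of whether the radiation response differed between models called none of the 10 genes and 0.0259% of all genes (3 higher and 2 lower; 1652 genes had an unadjusted p under 0.05). DESeq2 called 69 genes in this comparison, none of them a member. Among the members Csf1r had an unadjusted p of 0.0318 (difference 0.70, 95% interval 0.06 to 1.33, adjusted p = 0.512). Fcgr4 differed by -1.02 (-2.04 to 0.00, adjusted p = 0.586), Adgre1 by 0.62 (-0.14 to 1.37) and Trem2 by -0.64 (-1.45 to 0.18). These intervals are wide enough to hold differences as large as several of the responses themselves.

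Within each antibody fewer genes passed. In primary tumors Fcgr4, Fcgr1, Cd68 and C1qa rose with isotype, 4 of 10 members where 9.19% of all genes rose, and Fcgr4, Cd68 and Fcgr1 rose with anti-PD-1, 3 of 10 members where 7.92% of all genes rose. The log2 fold changes of Fcgr4 were 2.70 (SE 0.44) with isotype and 2.04 (SE 0.43) with anti-PD-1, and those of Fcgr1 were 1.73 (SE 0.28) and 1.25 (SE 0.27). The call of C1qa with isotype was lost without replicate 5 of that 20 Gy group (adjusted p = 0.0683). Without replicate 5 of the primary anti-PD-1 tumors at 20 Gy, the count with anti-PD-1 went from 3 to 6, adding C1qa (adjusted p = 0.0118), Adgre1 (0.0167) and C1qc (0.0483). The count with isotype then went from 4 to 7, adding Adgre1 (0.0352), C1qb (0.0374) and C1qc (0.0483). Without replicate 5 at 0 Gy with isotype, C1qb also passed (0.0362).

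In transplant tumors Fcgr1 was the sole member called, with isotype (log2 fold change 1.56, SE 0.39, adjusted p = 0.0245, 1.82% of all genes higher) and with anti-PD-1 (1.55, SE 0.39, adjusted p = 0.0497, 0.538% of all genes higher). With isotype that call was lost without replicate 1, 2 or 4 at 0 Gy or replicate 1 at 20 Gy (adjusted p of 0.0712 to 0.122). With anti-PD-1 it was lost in 25 of 48 removals, with an adjusted p of up to 0.354 without replicate 4 at 0 Gy. Trem2 gave no call with isotype, though its estimate was the largest in size there, -1.58 (-2.54 to -0.61, adjusted p = 0.0759). DESeq2 and the fit of those groups alone called it lower. Members besides Fcgr1 also passed in single removals. Without replicate 5 of the primary anti-PD-1 tumors at 20 Gy, Adgre1 passed with isotype (adjusted p = 0.0386) and with anti-PD-1 (0.0425). With isotype, Adgre1 (0.0443), Cd68 (0.0219) and Trem2, which was lower (0.0340), passed without replicate 3 at 0 Gy. Cd68 also passed without replicate 1 of the untreated primary tumors (0.0499), and Trem2 without replicate 2 of the transplant anti-PD-1 tumors at 20 Gy (0.0426). The difference of the responses between antibodies was not tested.

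To ask whether the other genes moved with Csf1r, each gene was also measured relative to it, as log2 CPM minus the log2 CPM of Csf1r in the same tumor (limma-trend, 19326 genes). In primary tumors the same 7 genes rose relative to Csf1r, where 15% of all genes differed in either direction. Fcgr4 gained 2.36 (1.82 to 2.90, adjusted p = 3.94e-09), Fcgr1 1.68 (adjusted p = 1.07e-07), Cd68 1.07 (adjusted p = 2.55e-05) and C1qa 0.85 (adjusted p = 0.00186). Apoe, at 0.24, and Trem2, at 0.11, gave no call. With group means subtracted, Csf1r correlated with the skeletal muscle genes, listed below, at 0.53, the highest of the members (Cd68 lowest, 0.09). Its correlation with the mean of the other 9 members was 0.61. The effect of muscle on these values was not tested. The median over all genes was 0.23 on the scale relative to Csf1r. The choice of reference decided these directions. Relative to the mean of the pan-leukocyte genes, where the median over all genes was -0.78 and 71.6% of them differed, C1qb (-0.35, adjusted p = 0.0356) and C1qc (-0.37, adjusted p = 0.0315) were called lower after radiation in place of higher. Csf1r, Trem2 and Apoe were also called lower with that reference, C1qa and Adgre1 had negative estimates without a call, and Fcgr1 and Fcgr4 still rose. The pan-leukocyte genes themselves rose in both models, 5 of 5 in each.

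In transplant tumors only Trem2 differed relative to Csf1r, by -1.44 (-2.09 to -0.78, adjusted p = 0.0145), where 2.43% of all genes did. This call was lost without replicate 4 at 0 Gy with isotype (adjusted p = 0.0589). Fcgr1 gained 0.98 (adjusted p = 0.0597) and Adgre1 0.81 (adjusted p = 0.0583), close to the threshold, and passed in 6 and 5 of 48 removals. Both passed without replicate 3 of either unirradiated transplant group or replicate 4, 5 or 6 of the primary anti-PD-1 tumors at 20 Gy (without replicate 5, adjusted p = 0.0464 for Fcgr1 and 0.0291 for Adgre1), and Fcgr1 also without replicate 4 of the untreated primary tumors. The median over all genes was -0.64 in this comparison.

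Anti-PD-1 was compared with isotype within each dose and model. None of the 10 genes was called in any of the 4 comparisons, and edgeR called 0% of all genes in each (primary 0 Gy, primary 20 Gy, transplant 0 Gy and transplant 20 Gy). At an unadjusted p under 0.05 there were 3.66, 10.1, 0.678 and 2.65% of the genes. DESeq2 called 6, 45, 1 and 1 genes and limma voom 0 in each, with no member among them. One member, Trem2, had an unadjusted p under 0.05, in transplant tumors at 20 Gy (0.0143), with a log2 fold change of 1.21 (0.25 to 2.17, adjusted p = 0.936).

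The members with the next smallest p in these comparisons were Apoe and Csf1r in primary tumors at 20 Gy. Apoe differed by 0.78 (-0.01 to 1.58) and Csf1r by 0.49 (-0.03 to 1.01). Fcgr4 was 0.74 higher with anti-PD-1 in unirradiated primary tumors (-0.10 to 1.58) and 0.75 higher in unirradiated transplant tumors (-0.43 to 1.94). The C1q chains differed by 0.07 to 0.08 in unirradiated primary tumors, with intervals of about 0.5 on either side. These data do not exclude changes of that size.

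Transplant and primary tumors given the same treatment were compared next. Fcgr4 was the sole member called between the models before radiation. In transplant tumors it was 5.26-fold higher with isotype (log2 fold change 2.40, 1.41 to 3.38, adjusted p = 0.00101) and 5.32-fold higher with anti-PD-1 (2.41, 1.43 to 3.39, adjusted p = 0.00130). In both cases all 4 transplant tumors lay above all 8 primary tumors. How many of all genes separated the models in this way was not counted. The other 9 members gave no call, against 10.3% of all genes that differed with isotype and 7.35% with anti-PD-1. The 1 call among 10 members was thus near the share of all genes.

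C1qa was level between the models, with a log2 fold change of 0.07 (-0.59 to 0.73) with isotype. Fcgr1 stood at 0.35 (-0.30 to 1.01), Csf1r at -0.45 (-1.09 to 0.20) and Adgre1 at -0.48 (-1.25 to 0.29). Apoe had the lowest estimate, -1.17 with isotype (-2.19 to -0.15, adjusted p = 0.132) and -1.36 with anti-PD-1 (-2.39 to -0.33, adjusted p = 0.0960), and DESeq2 called it with anti-PD-1. Relative to Csf1r, Fcgr4 alone differed between untreated models (2.89, 1.96 to 3.82, adjusted p = 4.02e-05), where 7.59% of all genes did. Without replicate 4 of the untreated primary tumors Fcgr1 passed too (1.18, adjusted p = 0.0240).

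The level of Fcgr4 set against C1qa, as the difference of their log2 CPM within each tumor, varied with model, dose and antibody in its means, and these were not tested. With isotype it was -5.14 ± 0.67 (SD, n = 8) in primary tumors at 0 Gy with isotype and -3.35 ± 0.65 (SD, n = 8) at 20 Gy. In transplant tumors it was -2.82 ± 0.62 (SD, n = 4) at 0 Gy and -2.21 ± 0.42 (SD, n = 4) at 20 Gy. With anti-PD-1 it was -4.43 ± 0.52 (SD, n = 8) at 0 Gy and -3.20 ± 0.52 (SD, n = 8) at 20 Gy in primary tumors, and -2.24 ± 0.17 (SD, n = 4) and -1.92 ± 0.46 (SD, n = 4) in transplant tumors. The unirradiated transplant means thus lay about as far apart by antibody as the isotype means did by dose. The highest untreated primary tumor, at -4.08, lay below the lowest untreated transplant tumor, at -3.69.

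After 20 Gy, with isotype, 4.87% of all genes differed between models and Trem2 was the sole member among them, lower in transplant tumors (log2 fold change -1.81, -2.70 to -0.92, adjusted p = 0.0107). All 4 transplant tumors, from 3.11 to 3.72 log2 CPM, lay below all 8 primary tumors, from 3.88 to 6.16. The share of all genes that separated so was not counted here either. The call was lost without replicate 4 of the transplant group (adjusted p = 0.0610). With anti-PD-1, 6.76% of all genes differed and Fcgr4 was the sole member called (1.62, 0.64 to 2.60, adjusted p = 0.0367). That call was lost in 9 removals, with an adjusted p of up to 0.157 without replicate 3 of the transplant group. The 9 were replicates 1, 2 and 3 of the transplant group and replicates 1, 2, 5 (adjusted p = 0.0588), 6, 7 and 8 of the primary group. Fcgr1 passed without replicate 3 (1.09, adjusted p = 0.0264) and C1qb without replicate 4 (0.96, adjusted p = 0.0490) of the primary group.

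**Figure D4:**
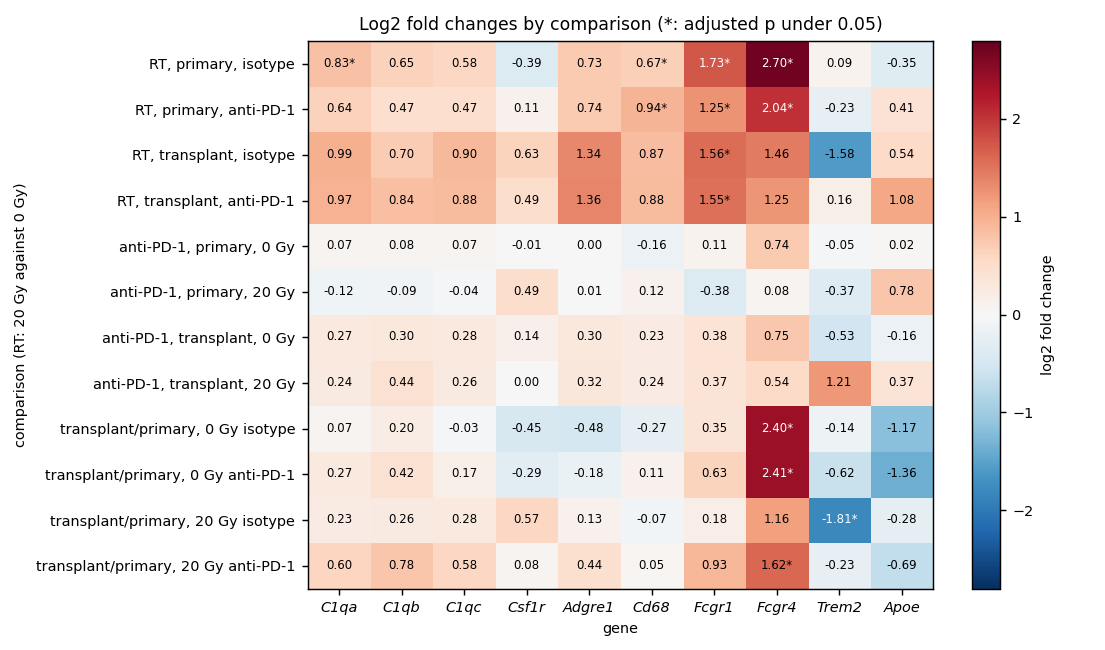
Log2 fold changes of the 10 genes in the 4 radiation (RT), 4 anti-PD-1 and 4 model comparisons within single treatments, with an asterisk where the adjusted p was under 0.05. Asterisks stand under Fcgr1 in each of the 4 radiation comparisons and under Fcgr4 in 3 of the 4 model comparisons, and none stands in an anti-PD-1 comparison.

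Within groups the genes covaried to different degrees. After the group means were subtracted, the log2 CPM of C1qa, C1qb and C1qc had Pearson correlations of 0.98 to 0.99 over the 48 tumors. C1qa correlated with Fcgr1 at 0.86, Adgre1 at 0.85 and Fcgr4 at 0.78, with Apoe at 0.62, Trem2 at 0.59 and Csf1r at 0.51, and with Cd68 at 0.41. Fcgr1 and Fcgr4 correlated at 0.84. Apoe correlated with Trem2 at 0.63 but with Fcgr4 at 0.28. These are descriptions: the points share libraries, groups and scaling, and no test was made.

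Replicate 5 of the primary anti-PD-1 tumors at 20 Gy carried part of these values. Without it, over 47 tumors, C1qa correlated with Adgre1 at 0.74, with Fcgr1 at 0.76 and with Cd68 at 0.56, while the C1q chains stayed at 0.97 to 0.98. Adgre1 correlated with Fcgr1 at 0.54 in place of 0.73. Apoe correlated with Fcgr4 at 0.13 in place of 0.28, and with Fcgr1 at 0.22 in place of 0.39.

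**Figure D5:**
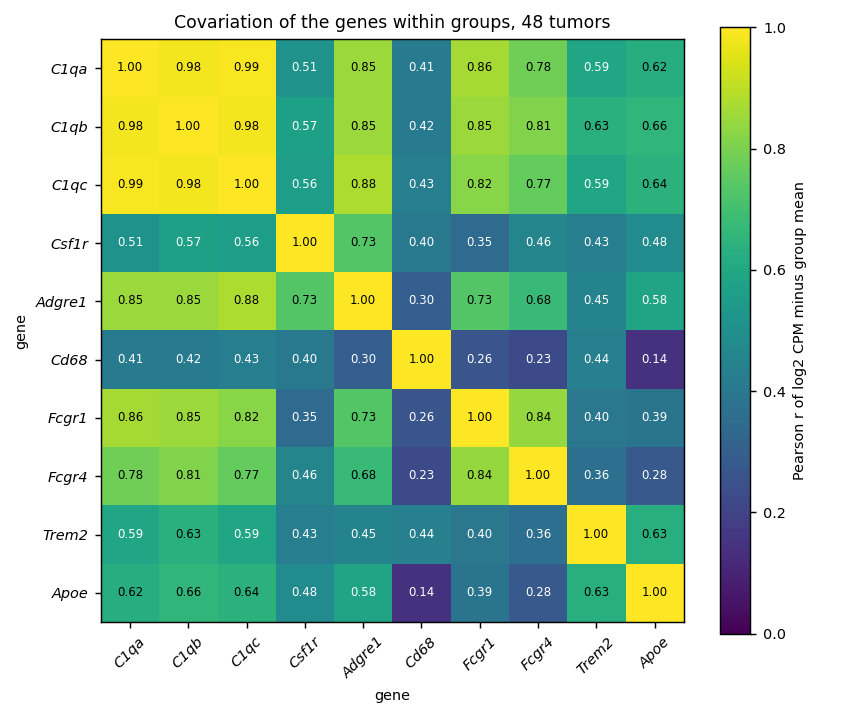
Pearson correlation of each pair of genes over 48 tumors after subtracting group means. The C1q block reaches 0.98 to 0.99, Fcgr1 and Fcgr4 pair at 0.84, and the Cd68 row is the darkest, from 0.14 with Apoe to 0.44 with Trem2.

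Among 11730 further genes with a mean log2 CPM of at least 2, the 10 whose within-group variation was most like the mean of the macrophage genes were Ly86 (r = 0.937), P2ry6 (0.934), Tnfaip8l2 (0.913), Hfe (0.906), Lmo2 (0.904), Pld4 (0.902), Acss1 (0.900), March1 (0.898), Itm2b (0.897) and Tbxas1 (0.895). Without replicate 5 of the primary anti-PD-1 tumors at 20 Gy these values ran from 0.839 to 0.902.

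Genes that act beside the members were counted from lists. Of 10 other complement genes, 9 rose in irradiated primary tumors, with the highest estimate, 2.53, for Cfb, a protease of the alternative pathway. In transplant tumors 3 rose: C2, C3ar1 and Cfb. Of 6 other Fc receptor genes, which include the signaling chain Fcer1g and the kinase Syk, 5 rose in primary tumors and 3 in transplant tumors. In primary tumors Fcgr3 had the highest estimate, 1.28, and Fcgrt, the neonatal receptor, the lowest, 0.16. Between untreated models Fcgrt had the lowest estimate of that list, -0.61, and no gene of it was called.

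Of 10 genes of the CSF1 axis, which holds the ligands, related receptors and macrophage transcription factors, 6 rose in irradiated primary tumors and none fell, with Csf2 at 3.83 and Il34 at -0.60 as extremes. In transplant tumors 4 rose. Between untreated models Csf2rb was higher in transplant tumors (1.08) and Csf1 and Il34 were lower (Il34 at -1.58). These ligands of the Csf1r receptor were called lower together in that comparison alone: of the other 3 treatments, the one with 20 Gy and anti-PD-1 gave a call for Csf1 and none gave one for Il34.

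Of 14 genes of TREM2 signaling and lipid handling, 7 rose in primary and 6 in transplant tumors after radiation, although Trem2 and Apoe were not called in either. Nr1h3, which encodes the oxysterol receptor LXRα, was highest in primary tumors (1.99) and Cd9 lowest (-0.10). Between untreated models Nr1h3 was higher and Gpnmb (-1.91) lower in transplant tumors, and Spp1 had the largest estimate (1.83, adjusted p = 0.094). Of 9 resident-type macrophage genes, Siglec1 (1.54), Folr2, Mertk and Vsig4 rose and Cx3cr1 (-1.17) fell in irradiated primary tumors, and Siglec1 rose in transplant tumors. Between untreated models Timd4 (2.08) was higher and Lyve1 (-3.14) and Siglec1 lower in transplant tumors.

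Markers of other myeloid cells moved with radiation as well. All 5 inflammatory monocyte genes rose in primary tumors, between Ccr2 at 1.16 and Ly6c2 at 2.73, and 2 of 5 in transplant tumors. Their summed level in primary tumors with isotype ran from 93.9 to 521 CPM at 0 Gy and from 250 to 2117 CPM at 20 Gy. All 5 neutrophil genes rose in primary tumors, between Csf3r at 1.83 and Cxcr2 at 2.51, and 1 of 5 in transplant tumors, and they summed to 13.6 to 79.8 CPM at 0 Gy and 31.5 to 771 CPM at 20 Gy in primary tumors with isotype. Of 9 skeletal muscle genes 8 rose in irradiated primary tumors, between Myh1 at 2.20 and Mylpf at 2.89, and none in transplant tumors. Their sums in primary tumors with isotype ran from 68.7 to 6339 CPM at 0 Gy and from 305 to 48626 CPM at 20 Gy. The median sum with isotype did not rise, at 1868 CPM at 0 Gy and 1475 CPM at 20 Gy. With anti-PD-1 the median was 1488 CPM at 0 Gy and 1991 CPM at 20 Gy, where the highest sum was 86160 CPM. With the mean of the muscle genes as a covariate, 5 of the 7 calls in primary tumors remained, and C1qb and C1qc missed the threshold. The part of the monocyte and neutrophil genes in the rise of Fcgr1 and Fcgr4 was not tested.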

How the data were processed

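Bulk RNA was measured in 48 tumors and 2 libraries of line 402230. According to their methods, the authors enriched polyadenylated RNA, made stranded libraries and used Trimmomatic for trimming, STAR for alignment to mm10 and its HTSeq mode to count genes of GENCODE M17. Whether counting used strand was not given in the sources used here. The deposited values were raw read counts for 37469 genes, with no normalization, as 1 table. Groups came from the labels. Replicates were tumors of separate mice only as far as the labels name them separately, so p-values measure the spread between these libraries. Over 136 pairs of libraries of 1 group, chi-square per degree of freedom was at least 85.6, so no library was counted as deposited more than once.

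Identifiers were matched to GENCODE M21 symbols, ignoring versions. filterByExpr by group left 19327 genes. All 48 tumors were fitted in 1 model with a mean per group (edgeR 4.0.16 in R 4.3.3, TMM factors, robust quasi-likelihood test), and p-values were adjusted by Benjamini-Hochberg over all genes with a threshold of 0.05. Log2 CPM used a prior count of 2. Levels beside the libraries of line 402230 were scaled over all 50 libraries. The values relative to Csf1r were tested with limma-trend. Scripts were tested on simulated data.

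The members and lists were chosen with earlier results of these data known. Named were the 10 members in every comparison, the highest and lowest estimate of each other list in 2 comparisons (radiation in primary tumors and untreated models), and the 10 genes most like the mean of the members. Some list genes that this rule names are not reported here. Alternatives were DESeq2, limma voom, other scalings, no filter, the groups of a comparison alone, a muscle covariate, the library labelled parental tumor added to the untreated primary group, other references, and each library left out in turn. Single-cell and exome data were not used here.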

Additional observations from a re-analysis of the deposited data

Results flagged for a closer look

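Over 80 sets of values, 10 genes in 8 groups, 9 held a tumor far from the rest of its group by Dixon's criterion, which chance meets in about 1 in 20 groups. In untreated primary tumors with isotype, replicate 5 was the highest for C1qa (9.73 log2 CPM), C1qb (9.56) and C1qc (9.35), with the nearest tumor at 8.94, 8.75 and 8.53. In transplant tumors given 20 Gy and isotype, replicate 1 was the highest for C1qa (10.57, nearest 9.72) and Adgre1 (8.42, nearest 7.90). Adgre1 was also high in replicate 2 of the transplant anti-PD-1 tumors at 20 Gy (9.19, nearest 7.93). Fcgr1 was low in replicate 5 of the primary anti-PD-1 tumors at 20 Gy (4.94, nearest 7.07). Apoe was low in replicate 3 of the primary anti-PD-1 tumors at 0 Gy (8.20, nearest 9.67) and in replicate 7 of the primary isotype tumors at 20 Gy (8.96, nearest 9.61). The cause of none of these was tested.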

How the results depend on the processing

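In the fits of each gene against its own groups, 26 of 150 estimates were called. No called estimate changed sign under any alternative, and 10 of the 26 were called under all of them. The alternatives include the fit with the library labelled parental tumor, whose losses are given below. Of the estimates not called, 33 changed sign under at least one, the largest of these having a size of 0.37. Counts of members called stayed within 1.5 times the count given above except as follows, and the cause was not tested. The library labelled parental tumor was added to the untreated primary group, which the other libraries of that group do not resemble. This left 3 calls for radiation in primary tumors over both antibodies, where 3388 of all genes were higher and 2742 lower. In transplant tumors over both it left 1 (806 and 182 of all genes). In primary tumors with anti-PD-1 it left 1 (1147 and 415). There were 0 in transplant tumors with isotype (146 and 7) or anti-PD-1 (14 and 0). For the model at 20 Gy there were 0 with isotype (303 and 342) or anti-PD-1 (226 and 457). The groups of a comparison alone gave 7 calls for radiation in primary tumors with isotype, all higher, where 1403 of all genes were higher and 751 lower. They gave 5 in transplant tumors with isotype, 4 higher and Trem2 lower, where 862 of all genes were higher and 185 lower. There were 0 in transplant tumors with anti-PD-1 (1 gene higher and 0 lower over all genes). For the model at 20 Gy with anti-PD-1 there were 0 (2 and 0). Without the filter, 0 were called in transplant tumors with anti-PD-1 (28 of all genes higher and 2 lower). The model at 20 Gy with anti-PD-1 then gave 0 (345 and 397). Library totals gave 0 in transplant tumors with anti-PD-1 (68 and 7). DESeq2 gave 2 for radiation in transplant tumors with isotype, Fcgr1 higher and Trem2 lower (537 of all genes higher and 62 lower). It gave 2 for the model at 0 Gy with anti-PD-1, Fcgr4 higher and Apoe lower (740 and 1263). Limma voom gave 4 for radiation in primary tumors over both antibodies (2452 of all genes higher and 2701 lower). It gave 2 for the model at 20 Gy with anti-PD-1 (1024 and 570).

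Relative to Adgre1 in place of Csf1r, 4 members differed after radiation in primary and 3 in transplant tumors, where 31.8% and 82.4% of all genes did and their median was -0.56 and -1.45, and C1qb (-0.13) and C1qc (-0.15) had the opposite sign in primary tumors. Relative to the pan-leukocyte genes, 2 differed in transplant tumors, where 79.4% of all genes did and their median was -1.19, and C1qa (-0.15), C1qb (-0.35), C1qc (-0.37) and Adgre1 (-0.21) had the opposite sign in primary tumors, with C1qb and C1qc called lower, as another reference asks another question. Leaving out 1 of 48 libraries gave 5 to 7 calls for radiation in primary tumors over both antibodies, 3 to 7 in transplant tumors over both, 3 to 7 in primary tumors with isotype, 3 to 6 with anti-PD-1, 0 to 4 in transplant tumors with isotype, 0 to 2 with anti-PD-1, 0 to 1 for the model at 20 Gy with isotype and 0 to 2 with anti-PD-1. Relative to Csf1r it gave 0 to 3 for radiation in transplant tumors and 1 to 2 for the untreated models. No paired analysis was possible because the replicate numbers follow the order of deposition and mark no shared mouse, litter or day. With 4 transplant tumors a group, differences of the size of most members' intervals were not detectable.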

Other observations

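Ratios between the C1q messages differed in their medians between groups. Per kilobase, the ratio of C1qa to C1qb had a median of 1.18 in unirradiated primary tumors (1.13 to 1.27) and 1.37 in irradiated ones (1.10 to 1.57). In transplant tumors it was 1.08 at 0 Gy (1.04 to 1.12) and 1.24 at 20 Gy (1.05 to 1.46). The unirradiated models did not overlap in this ratio. The ratio of C1qa to C1qc went from a median of 2.33 to 2.73 in primary tumors and from 2.53 to 2.71 in transplant tumors. That of C1qb to C1qc went from 1.94 to 2.01 in primary tumors and from 2.38 to 2.18 in transplant tumors. The doses overlapped in all of these ratios within each model. These ratios were chosen after their values were seen and were not tested.

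Lists of other cells were followed beside the macrophage genes. All 5 pan-leukocyte genes rose after radiation in primary tumors, from Coro1a at 0.57 to Cd53 at 1.12, and none differed between untreated models (Itgam 0.01, Ptprc 0.63). Of 4 NK cell genes, 3 rose in primary tumors (Prf1 at 1.73 highest, Klrb1c at 0.72 lowest and not called), and Klrb1c (-2.59) was lower in untreated transplant tumors, where Prf1 stood at 0.59. None of 5 T cell genes (Cd8a 0.31, Cd4 0.64), 5 dendritic cell genes (Cd209a -0.55, Flt3 0.19) or 4 B cell genes (Cd79b -0.16, Ms4a1 0.64) was called after radiation in primary tumors. Between untreated models Cd8a was higher in transplant tumors, Cd3d had the highest (2.25) and Cd4 the lowest (-0.25) estimate of the T cell genes, and no dendritic cell gene (Cd209a 1.10, Xcr1 -0.45) or B cell gene (lowest Cd79b -0.56) was called. None of the 5 inflammatory monocyte genes (Chil3 2.36, Plac8 0.21) or 5 neutrophil genes (Retnlg 3.11, Csf3r 1.29) was called between untreated models either. Of the other complement genes C3 was higher in untreated transplant tumors (2.06).

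All 5 cell cycle genes fell in irradiated primary tumors, between Ccna2 at -1.003 and Cdk1 at -0.55, and Ccna2 fell in transplant tumors. None of them differed between untreated models (Ccna2 -0.09, Cdk1 0.14). Pdgfra fell (-0.61) among 6 mesenchymal genes in irradiated primary tumors, where Col3a1 had the highest estimate (-0.22), and Col1a2 (-1.67) was lower in untreated transplant tumors, where Thy1 was highest (-0.62). None of 4 endothelial genes (Tie1 -0.29, Kdr 0.24) or 4 red blood cell genes (Hba-a2 -0.09, Hbb-bs 0.33) was called in irradiated primary tumors, and Plin4 (2.01) was the one adipose gene called of 5 (Lep 0.20). Kdr rose in irradiated transplant tumors. Between untreated models none of the muscle (Mylpf 2.61, Pvalb 1.24), adipose (Cidec 3.41, Plin4 1.88), endothelial (Pecam1 -0.03, Cdh5 -1.04) or red blood cell genes (Hba-a1 1.51, Hba-a2 0.89) was called.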
